A study of Mus musculus with 9 samples.

Results

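The genes described here are 40 genes of DNA replication, out of 52550 gene identifiers in a count table of mouse haematopoietic stem cells, which sit in the marrow and renew all blood lineages. They were chosen by name for what their products do, though with earlier results of these data known. They fall into 5 steps, of which the first are origin licensing (9 genes) and assembly of the helicase (6). Polymerases and other factors of the replication fork (17) follow, then supply of nucleotides (5) and assembly of chromatin on new DNA (3). Of the 40, 39 passed the filter on low counts and were tested; Fen1 did not pass. RNA was sequenced in 3 groups of 3 libraries: young wild-type (young WT) mice of 2 months, old wild-type (old WT) mice of 22 to 24 months, and old mice of the same age range with the genotype B6N.129S6-Sphk2tm1Rlp/J (Sphk2 cKO), called old KO here. Sphk2 encodes sphingosine kinase 2, which phosphorylates sphingosine. The label carries both an allele name and the letters cKO, and it names no Cre driver. Every library came from 1000 sorted marrow cells that were negative for lineage markers and CD48 and positive for Sca1, c-Kit and CD150, and its cDNA was amplified for 13 cycles and read in pairs of 150 bp. The labels call the replicates technical and name neither animal nor litter nor day. The p-values therefore reflect just the variation among these libraries, which may be technical. The old WT libraries enter 2 of the 3 comparisons, as do the young WT and the old KO libraries, so the comparisons are not independent of each other.

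A cell copies its DNA once per division. Before S phase, Cdc6 and Cdt1 load the ring of Mcm2 to Mcm7 onto origins, which licenses them, and geminin (Gmnn) holds Cdt1 back afterwards. Cdc45 and the GINS complex join the ring to make the active helicase, polymerases extend the new strands on the sliding clamp Pcna, and the chromatin assembly factor places histones behind the fork. Many of these genes are transcribed at the start of S phase by E2F factors. Haematopoietic stem cells of the adult marrow are mostly out of cycle, and their division is known to be rare.

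The promoters of the genes are shown first, because many of the genes are known E2F targets. Whether E2F factors had a part in the levels described below was not tested. RefSeq promoter windows (GRCm38.p6, 250 bases before to 50 after the start site) were found for 32 of the 40 genes. The 8 without one were Mcm4, Gmnn, Gins1, Gins2, Gins4, Prim2, Pole and Rfc2. The search was for an E2F-type motif, spelled TTTCCCGC, TTTCGCGC, TTTGCCGC or TTTGGCGC, and for CCAAT, each on both strands. Below are the 180 bases before the start site for the gene of each step with the highest young WT level per kb of exon that had a window, and for Mcm6, which was added after its sequence was seen because its E2F-type matches resemble those of Mcm5. Capitals mark matches to either motif, and overlapping matches run into each other. Each sequence is given 5′ to 3′ on the strand of its gene.
Mcm5, chr8:75109329-75109508, plus strand: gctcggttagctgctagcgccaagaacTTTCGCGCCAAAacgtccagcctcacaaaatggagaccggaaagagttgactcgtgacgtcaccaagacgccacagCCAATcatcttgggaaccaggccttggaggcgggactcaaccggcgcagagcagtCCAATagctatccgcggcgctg
Mcm6, chr1:128359706-128359885, minus strand: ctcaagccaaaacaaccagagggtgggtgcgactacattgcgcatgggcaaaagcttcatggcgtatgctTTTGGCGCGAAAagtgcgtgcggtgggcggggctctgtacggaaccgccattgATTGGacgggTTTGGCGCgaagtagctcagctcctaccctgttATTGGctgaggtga
Cdc45, chr16:18811973-18812152, minus strand: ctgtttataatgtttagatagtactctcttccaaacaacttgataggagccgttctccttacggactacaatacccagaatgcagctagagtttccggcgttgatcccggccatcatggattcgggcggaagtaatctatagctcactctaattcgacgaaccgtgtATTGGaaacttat
Pcna, chr2:132253181-132253360, minus strand: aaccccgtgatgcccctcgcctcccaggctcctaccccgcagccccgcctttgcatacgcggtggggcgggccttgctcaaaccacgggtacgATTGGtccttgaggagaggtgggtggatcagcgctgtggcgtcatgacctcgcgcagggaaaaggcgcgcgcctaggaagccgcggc
Dut, chr2:125247335-125247514, plus strand: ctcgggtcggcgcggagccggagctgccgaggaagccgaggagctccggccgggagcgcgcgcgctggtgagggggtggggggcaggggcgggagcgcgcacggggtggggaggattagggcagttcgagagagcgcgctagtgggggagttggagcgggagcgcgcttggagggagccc
Slbp, chr5:33652575-33652754, minus strand: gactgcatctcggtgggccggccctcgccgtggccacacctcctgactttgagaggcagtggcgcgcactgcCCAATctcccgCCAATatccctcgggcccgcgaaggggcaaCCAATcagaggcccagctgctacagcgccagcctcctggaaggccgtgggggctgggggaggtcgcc

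In Mcm5 and in Mcm6 a pair of E2F-type matches on opposite strands overlapped by 4 letters, starting at base -153 of Mcm5 and at base -110 of Mcm6, counted from the start site. Over the whole windows, 11 of the 32 genes held an E2F-type match (34.4%). Counted by window these were 11 of 36 (30.6%), against 2.265% of 32851 RefSeq promoter windows. The 11 were Mcm3, Mcm5, Mcm6, Mcm7, Cdc6, Cdt1, Gins3, Pola1, Pold1, Rfc3 and Lig1. By step these were 6 of 7 licensing genes with a window, 1 of 3 helicase genes, 4 of 14 fork genes, 0 of 5 nucleotide genes and 0 of 3 chromatin genes. CCAAT was in 20 of the 32 genes (62.5%) and in 21 of their 36 windows (58.3%), against 37.4% of all windows. A match is a description of letters, and a window without one says only that these letters are not in it. The map of motif matches gives their distance from the start site.

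**Figure D1:**
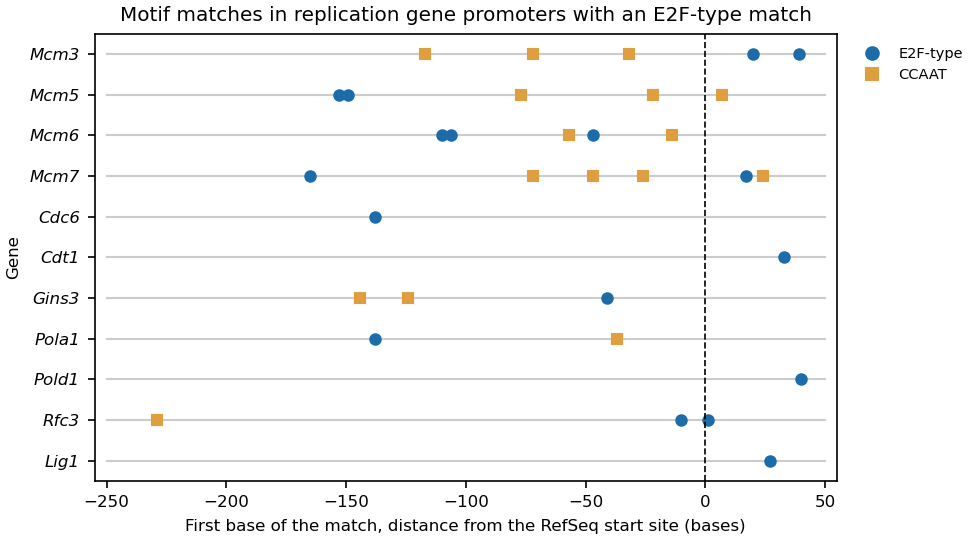
Each line is the RefSeq promoter window of 1 replication gene that held an E2F-type match, from 250 bases before to 50 after the start site (dashed line); circles mark the first base of an E2F-type match and squares that of a CCAAT match, both in bases from the start site. Windows of the same gene are drawn on 1 line. The matches of the Mcm genes lie on both sides of the start site, and 6 of the 11 genes are licensing genes.

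The depth over genes was unequal between groups. Counts in genes ran from 28088637 to 74021822 (young WT), from 3145167 to 5115003 (old WT) and from 11284847 to 17544945 (old KO), while counts outside genes made up 6.51% to 12.5%, 80.8% to 87.7% and 45.0% to 61.9% of all counts. Olfactory receptor genes are silent in blood cells, and their exons gave a background density of 1.09 to 1.43 reads per kb for young WT, 5.41 to 10.4 for old WT and 5.55 to 7.29 for old KO. A gene is called above background in a library here if it had at least 20 reads and at least 5 times the reads that this density gives over its exons. Sphk2 itself had levels of 22.8, 3.13 and 18.6 (young WT), 3.91, 0.318 and 10.2 (old WT) and 0.892, 2.04 and 0.456 (old KO) in CPM, the gene's count scaled to 1000000 counts in genes, and was above background in 0 of the 6 old libraries, so its level does not check the knockout label. Of 12 stem cell markers, 10 to 11 were above background in the young WT libraries, 1 to 2 in old WT and 8 to 11 in old KO. Summed over the list, these markers had 2309 to 2776, 615 to 1967 and 1753 to 3699 CPM. In bulk libraries, fewer cells of a type and less RNA per cell cannot be told apart. Neither the strand setting of the counting nor the annotation is given in the sources used here. The exons of Fen1 (78.8%), Gins2 (67.3%) and Chaf1a (52.5%) overlap exons of a gene on the other strand. If the counting ignored strand, reads there may have been left out as ambiguous, so the counts of these genes may be too low. This could not be checked. Fen1, the flap nuclease of lagging-strand synthesis, had at most 0.870 CPM in any library and was above background in none.

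Nearly the whole replication set was detected in young WT, almost none of it in old WT, and part of it in old KO. The number of the 40 genes above background was 36, 35 and 34 for the young WT libraries, 2, 1 and 0 for old WT, and 11, 7 and 13 for old KO. These ranges did not overlap between any pair of groups. Nor did those of all protein-coding genes above background, which were 7379 to 8122 (young WT), 640 to 1129 (old WT) and 2877 to 4171 (old KO). The separation is therefore not particular to the replication genes. Each library was then thinned to 3145167 counts in genes, which left the counts outside genes and the background unequal between groups. Of the 40 genes, 29, 32 and 31 (young WT), 3, 1 and 0 (old WT) and 10, 7 and 12 (old KO) were then above background. Most of the young values lay far over the background: the median over the 120 values of 40 genes in 3 libraries was 354 times background (young WT), 1.38 times (old WT) and 2.08 times (old KO).

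**Figure D2:**
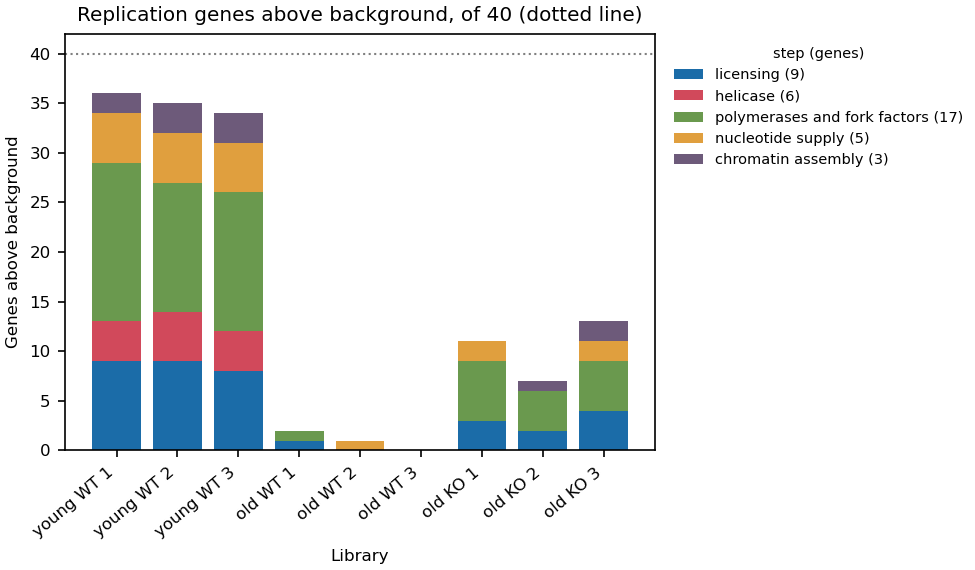
Stacked bars give, for each library, the number of the 40 replication genes above background (at least 20 reads and at least 5 times the reads expected from the olfactory receptor density), coloured by step, and the dotted line marks 40. The young WT bars stand at 34 to 36, the old WT bars at 0 to 2 and the old KO bars at 7 to 13, and no old bar holds a helicase gene.

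In young WT, 29 genes were above background in all 3 libraries, 9 in 2 of them and 2 (Gins3 and Fen1) in none. In old WT, 37 genes were above background in 0 libraries and 3 in 1 library, Mcm6 and Rpa1 in library 1 and Dut in library 2. Of the 8357 genes of the genome detected in 2 or more young WT libraries, 78.4% reached it in no old WT library, 15.1% in just 1, 3.06% in 2 and 3.47% in all 3. The 40 include Gins3 and Fen1, which are outside these 8357 and were above background in no old library. In old KO, 18 of the 40 genes were above background in 0 libraries, 15 in 1, 5 in 2 and 2 (Pcna and Mcm7) in 3. The same genome-wide shares for old KO were 37.3%, 28.4%, 16.6% and 17.7%. Most genes that young cells express were thus not detected in old WT either.

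**Figure D3:**
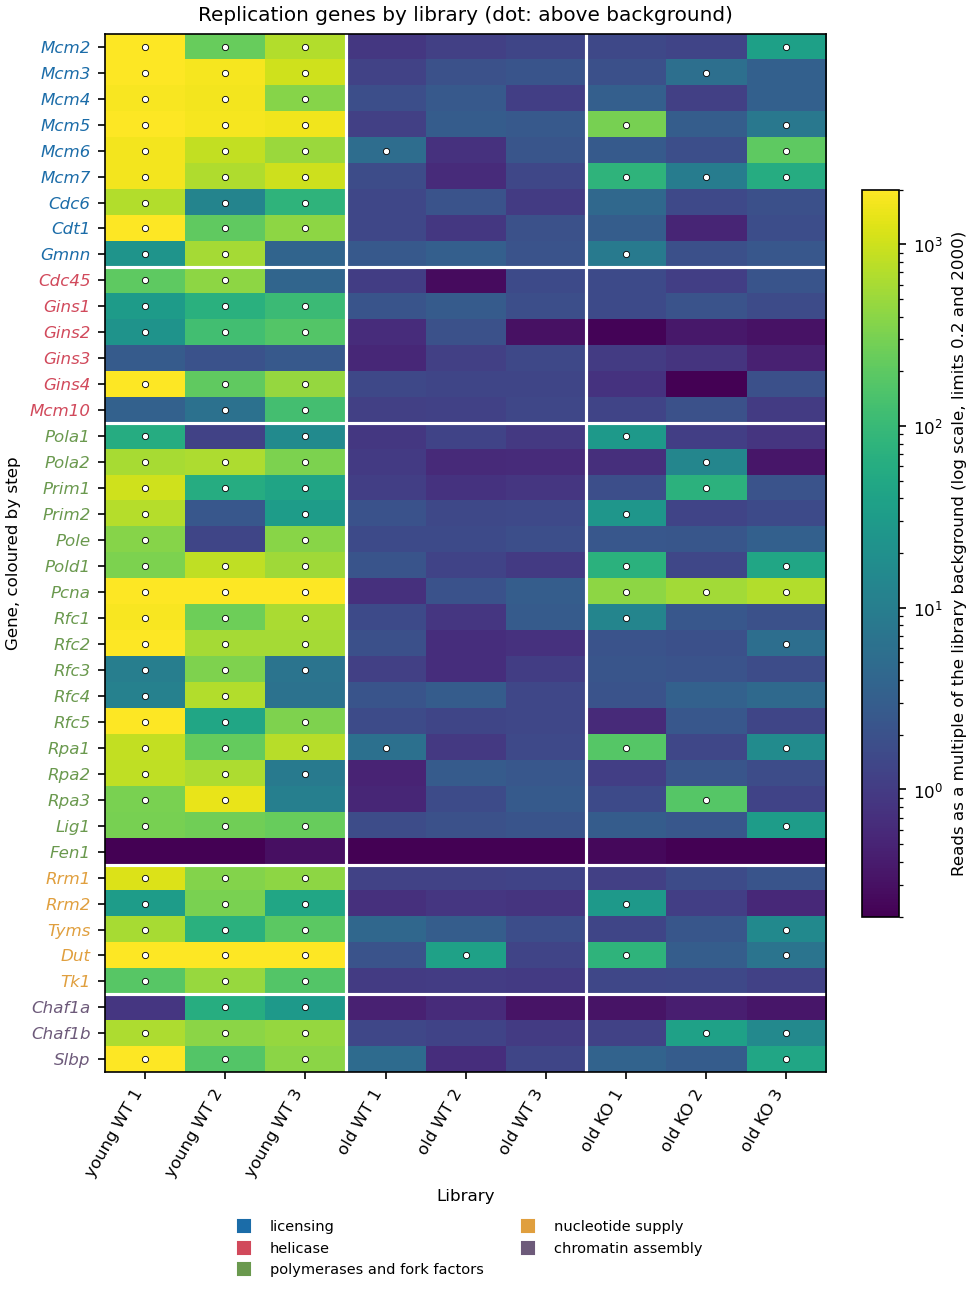
Each cell is 1 replication gene (rows, names coloured by step) in 1 library (columns); colour gives its reads as a multiple of the library's background on a log scale with limits at its ends, and a dot marks values above background. The young WT columns are bright with dots in 34 to 36 rows, the old WT columns are dark, and the old KO columns hold 31 dotted values in all that are spread over different genes in different libraries, with full rows for Pcna and Mcm7 alone.

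Fold changes were fitted by edgeR's quasi-likelihood F test on all 32582 genes that passed the filter, with trimmed-mean (TMM) scaling factors and Benjamini-Hochberg adjustment at 0.05. A gene past that threshold is said to be called, and a negative log2 fold change means a lower value in the group named first. These values depended on the scaling. The median log2 fold change of all tested genes in old WT against young WT was 1.37 with TMM and 5.32 when only total counts were used for scaling. For old KO against young WT these medians were 1.20 and 3.25, and for old KO against old WT -0.04 and -1.93. A fold change on the TMM scale is therefore about 4 log2 units lower for old WT against young WT than the ratio of CPM values would give. The CPM values are printed beside it. Set against the median of genes above background in 2 or more young WT libraries, the values moved much less between scalings. That median was -4.93 with TMM and -0.86 with total counts in old WT against young WT. The replication genes had a median of -6.13 and -1.89, which is 1.20 and 1.03 log2 units below it. The genes behind this median were kept for their young values, and most old WT values lay near background. In comparisons with young WT, here and below, a distance from it can follow the young level alone.

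In old WT against young WT, 34 of the 39 tested replication genes were called lower and 0 higher. Among all tested genes 18.4% were called lower. Among genes above background in 2 or more young WT libraries the share was 68.7%, and of the 38 replication genes that meet this condition 34 were called. By step, 8 of 9 licensing genes, 4 of 6 helicase genes, 14 of 16 fork genes, 5 of 5 nucleotide genes and 3 of 3 chromatin genes were lower. Those not called were Gmnn, Gins3, Mcm10, Pola1 and Prim2. Of the 34 called, 17 had CPM ranges that overlapped between young and old WT, and 1 (Gins1) had a fold change above 0 with total counts. With total counts as the only scaling 11 genes were called lower (Mcm2, Mcm3, Mcm4, Mcm5, Mcm7, Gins4, Pola2, Pcna, Rfc2, Rrm1 and Dut) and 1 higher (Gins3), where 3.43% of all tested genes were called lower. After the background was subtracted 0 of 38 were called (edgeR; 12 lower at an unadjusted p under 0.05), and 0.0579% of 8629 genes were called lower. By CPM alone, 17 genes had old WT values below every young WT value (5.87% of all tested genes did), 20 overlapped, and 3 (Gins3, Pola1 and Fen1) had old WT values above every young one, as did 65.0% of all tested genes. None of those 3 was above background in any old WT library. The shares beside the total-count calls, and beside CPM ranges here and in the comparisons below, were counted over all tested genes alone. They were not counted over genes above background in 2 or more young WT libraries, so no excess is read from them. Relative to the median of young-expressed genes, 28 of the 38 lay lower and 10 higher with TMM, and 30 and 8 with total counts. With old WT values mostly near background, a place below this median can come from a higher young level, so no excess is read from these counts either.

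**Figure D4:**
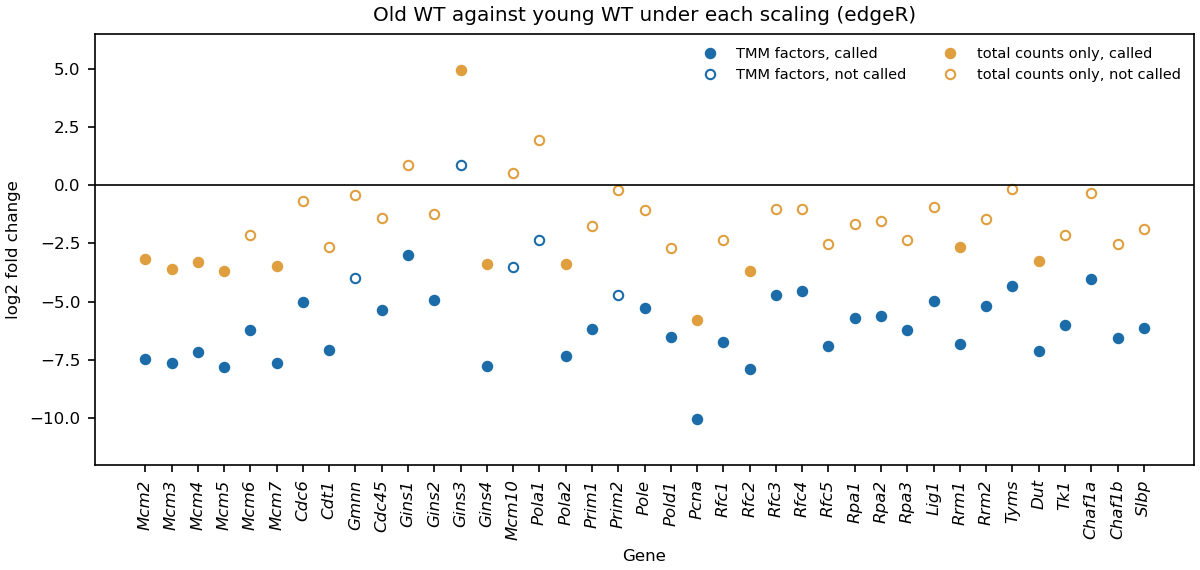
Each position is 1 of the 39 tested replication genes, and the vertical axis is its log2 fold change in old WT against young WT from edgeR, with TMM factors (blue) or with total counts as the only scaling (orange); filled symbols are called. With TMM 34 genes are filled and all but Gins3 lie below 0, while with total counts 12 are filled and the values lie about 4 units higher.

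In old KO against old WT, 1 of 39 replication genes was called higher (Pcna) and 0 lower, with 0.457% of all tested genes and 1.79% of young-expressed genes called higher. By CPM, Pcna and Mcm7 had old KO values above every old WT value (1.91% of all tested genes did). The old KO values of 17 genes lay below every old WT value, as did those of 48.8% of all tested genes, and all 17 were above background in 0 old WT libraries and 15 of them in 0 old KO libraries. The median log2 fold change of the replication genes was 0.76 with TMM and -1.11 with total counts, so its sign depended on the scaling. Relative to the median of young-expressed genes, which was 1.49 and -0.49, the replication genes lay 0.73 and 0.62 log2 units lower. DESeq2 called 8 replication genes higher (Mcm5, Mcm6, Mcm7, Pold1, Pcna, Rpa1, Rpa3 and Chaf1b), where it called 6.07% of all tested genes higher. Its share among young-expressed genes was not counted, so these 8 are not read as an excess.

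In old KO against young WT, 14 of 39 genes were called lower and 0 higher, with 5.84% of all tested genes and 22.3% of young-expressed genes called lower. The 14 were Mcm3, Mcm4, Cdt1, Gins1, Gins2, Gins4, Pola2, Rfc1, Rfc2, Rfc5, Rpa2, Rrm1, Dut and Tk1. By CPM, 12 genes lay below every young WT value (4.06% of all tested genes did), which are the same genes without Gins1 and Rpa2. The median over the 39 genes was -3.95, which is 1.19 log2 units below the median of young-expressed genes. Without any 1 of the 3 old KO libraries 0 genes were called. Whether the old groups differed from young WT by unequal amounts was read from the direct comparison of old KO with old WT above.

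Levels of different genes can be compared only per length. In young WT, Pcna (258 ± 85.2 CPM per kb of exon; SD, n = 3) and Dut (240.1 ± 74.1) had the highest levels and differed by less than their spread. Mcm5 followed with 66.3 ± 9.50 CPM per kb, then Mcm3 with 49.6 ± 17.7, Mcm4 with 37.7 ± 25.8 and Mcm7 with 33.1 ± 11.03, and neighbours in this order from Mcm5 on did not differ beyond their spread. In old KO, Pcna had 262 ± 86.2 CPM per kb and stood first again, whereas Dut had 14.4 ± 21.4. Summed over the 40 genes, the young WT libraries had 4347, 3872 and 3739 CPM, the old WT libraries 635, 584 and 792 CPM and the old KO libraries 2441, 1589 and 1376 CPM. Background reads alone would give 3.01, 7.36 and 8.68 CPM, then 367, 325 and 571 CPM, and then 94.1, 122 and 59.8 CPM. Background would thus make up the larger part of each old WT sum and a small part of each old KO sum. Pcna alone made up 20.2%, 54.6% and 38.3% of the sum in the old KO libraries and 10.2% to 19.1% in young WT.

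Among the licensing genes, the Mcm2 to Mcm7 ring was detected in every young WT library. Mcm5, a subunit of that ring, had 224, 271 and 299 (young WT), 8.99, 19.7 and 31.9 (old WT) and 597, 7.89 and 10.1 CPM (old KO). The old WT values were all below the young ones, while old KO library 1 was higher than any young library and the other two stood at or near the old WT values. Its log2 fold change was -7.80 ± 1.76 (SE; edgeR adjusted p = 0.00918) in old WT against young WT, and 5.20 ± 1.56 (SE; edgeR adjusted p = 0.167) in old KO against old WT. The latter was 1.03 without old KO library 1 and 3.26 with the replicate number as a block. Mcm7, another ring subunit, had 119, 117 and 203 (young WT), 14.7, 4.77 and 19.1 (old WT) and 178, 27.4 and 84.8 CPM (old KO). Every old KO value was above every old WT value, and 1 of them was within the young range. The log2 fold change of Mcm7 was -7.63 ± 1.41 (SE; edgeR adjusted p = 0.00572) in old WT against young WT, 4.97 ± 1.25 (SE; edgeR adjusted p = 0.0954) in old KO against old WT and -2.66 ± 1.12 (SE; edgeR adjusted p = 0.0955) in old KO against young WT, so only the first was called.

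Mcm6 had 128, 154 and 109 (young WT), 49.1, 6.04 and 32.2 (old WT) and 6.39, 5.49 and 302 CPM (old KO). Old WT library 1 reached 5.42 times background but stayed below the young values, and old KO library 3 alone exceeded them. The fold change in old WT against young WT was -6.21 ± 1.80 (SE; edgeR adjusted p = 0.0205), and it was not called without old WT library 2 (-5.86) or 3 (-6.16). Mcm2, Mcm3 and Mcm4 complete the ring. Mcm2 was above background in 1 old KO library, at 83.2 CPM, which was within the young range of 64.3 to 217 CPM. Mcm3 reached 14.0 CPM in 1 old KO library against at least 123 CPM in young WT, and Mcm4 was above background in 0 old libraries. The loader Cdt1 had 124, 25.7 and 60.8 (young WT), 8.80, 4.77 and 18.9 (old WT) and 4.68, 1.06 and 1.77 CPM (old KO), and was above background in 0 old libraries. Cdc6, which loads the ring together with Cdt1, varied in young WT (58.0, 2.63 and 18.9 CPM) and was likewise above background in 0 old libraries. Geminin (Gmnn), the inhibitor of Cdt1, came from 1 young library for the most part (0.540, 33.1 and 0.258 CPM) and was not called in any comparison.

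The helicase genes were above background in 0 of the 6 old libraries. Gins4, a GINS subunit, had 91.6, 11.04 and 29.2 (young WT), 3.91, 3.18 and 5.51 (old WT) and 0.520, 0.177 and 0.798 CPM (old KO). Both old groups lay below all young values. Its log2 fold change was -7.74 ± 1.65 (SE; edgeR adjusted p = 0.00771) in old WT against young WT and -8.64 ± 1.72 (SE; edgeR adjusted p = 0.0298) in old KO against young WT, the latter not called without old KO library 1 (-8.62), 2 (-8.30) or 3 (-9.64). Cdc45, which bridges the ring and GINS, had 11.3, 56.2 and 0.645 (young WT), 7.23, 1.59 and 16.5 (old WT) and 2.75, 2.48 and 2.45 CPM (old KO). Young library 3 was lower than every old value, so the ranges overlapped. The fold change was -5.38 ± 1.62 (SE; edgeR adjusted p = 0.0237) in old WT against young WT, and it was not called without old WT library 1 (-5.52), 2 (-5.04) or 3 (-5.98).

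Mcm10, which helps activate the helicase, had 0.432, 1.89 and 44.9 (young WT), 17.2, 15.6 and 33.4 (old WT) and 5.13, 9.92 and 2.39 CPM (old KO). Young library 3 held almost all of the young signal. The fold change in old WT against young WT was -3.53 ± 1.56 (SE; edgeR adjusted p = 0.0782), not called; without young WT library 3 it was 0.27, without young WT library 1 it was called at -4.15, and with total counts it was 0.51. Gins1, another GINS subunit, had 0.743, 4.02 and 7.48 (young WT), 6.45, 7.31 and 8.41 (old WT) and 1.19, 2.04 and 0.798 CPM (old KO). Every old WT value was above 2 of the 3 young ones, and although it was called lower with TMM (-3.00 ± 1.03 (SE; edgeR adjusted p = 0.0354) in old WT against young WT), its fold change was 0.88 with total counts; these 2 values were picked after they were seen. Gins2 had 1.46, 19.5 and 32.1 (young WT), 5.08, 13.7 and 3.77 (old WT) and 0.446, 0.975 and 0.399 CPM (old KO), and its young and old WT ranges overlapped. Gins1 and Gins2 were above background in all 3 young libraries. Gins3 had at most 0.322 CPM in young WT and was above background in 0 of the 9 libraries.

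Among polymerases and fork factors, the clamp Pcna was the gene called between the old groups. Pcna (ENSMUSG00000027342, chromosome 2, 132249162 to 132253314, minus strand, GRCm38) had 734, 739 and 382 (young WT), 3.32, 8.27 and 21.8 (old WT) and 494, 868 and 527 CPM (old KO). The old WT values all lay far below the other 6 libraries, and 2 of the 3 old KO values were within the young range and the other above it. Its log2 fold change was -10.03 ± 1.32 (SE; edgeR adjusted p = 0.00385) in old WT against young WT, or -5.77 with total counts. In old KO against old WT it was 7.87 ± 1.21 (SE; edgeR adjusted p = 0.0297), and in old KO against young WT -2.16 ± 0.93 (SE; edgeR adjusted p = 0.101). The last value was 0.031 with total counts, and DESeq2 called it lower (-2.49, adjusted p = 0.0107). The rise in old KO against old WT was called without old KO library 1 (8.09) or 2 (7.86). It was not called without any other single library, with values from 7.50 without old WT library 1 to 8.41 without old WT library 3 and adjusted p from 0.0517 to 0.178. Without young WT library 1, 2 or 3 the value was 7.91 each time, without old WT library 2 it was 7.92 and without old KO library 3 it was 7.75. With total counts it was 5.81 (edgeR adjusted p = 0.146).

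**Figure D5:**
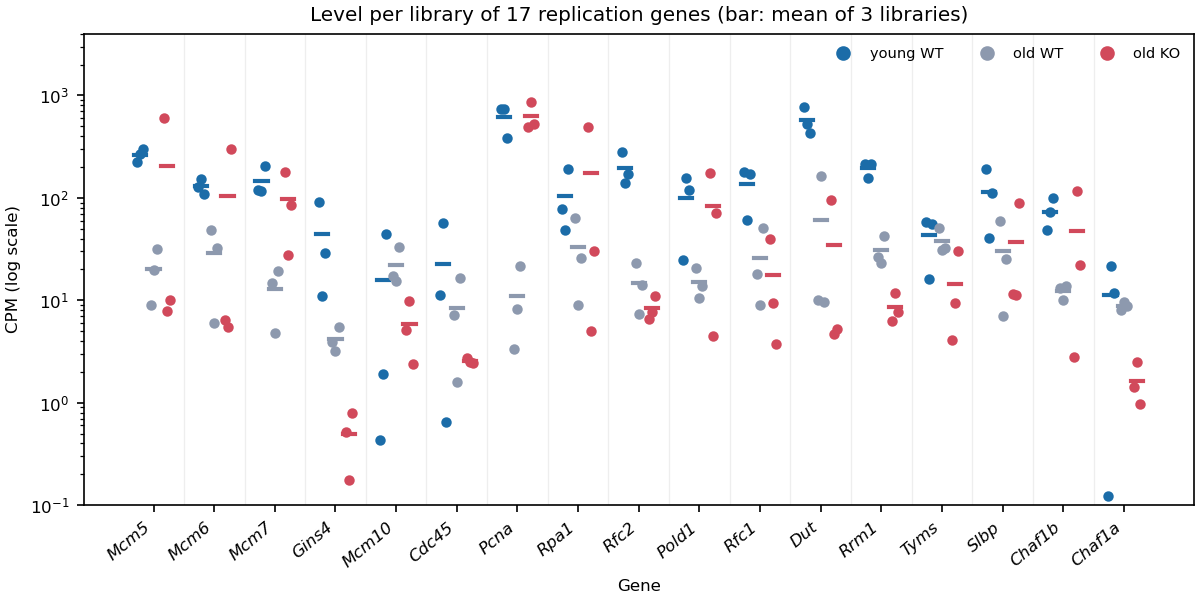
Points are single libraries (blue young WT, grey old WT, red old KO) and bars the mean of 3 libraries, for 17 of the replication genes with printed fold changes (not Gins1), in CPM on a log scale. The 3 old KO points of Pcna lie between 494 and 868 CPM, among or above the young points, while for Mcm5, Mcm6, Rpa1, Pold1 and Chaf1b the old KO points are spread over a wide range and only some reach the young level.

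Rpa1, the large subunit of the protein that coats single-stranded DNA, had 77.0, 48.8 and 189.8 (young WT), 63.7, 8.90 and 25.8 (old WT) and 491, 5.05 and 30.4 CPM (old KO). Library 1 of old WT was within the young range, and library 1 of old KO was above it. The fold change in old WT against young WT was -5.69 ± 1.68 (SE; edgeR adjusted p = 0.0221), and was not called without old WT library 2 (-5.36) or 3 (-5.47). Pold1, the catalytic subunit of polymerase delta, had 24.8, 157 and 118 (young WT), 20.5, 10.5 and 13.9 (old WT) and 176, 4.52 and 71.7 CPM (old KO). The old WT values were all below the young ones, and 2 of the 3 old KO values were within or above the young range. Its fold change in old WT against young WT was -6.52 ± 1.55 (SE; edgeR adjusted p = 0.0108).

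The clamp loader is made of Rfc1 to Rfc5, which open Pcna and place it on DNA. Rfc2 had 281, 139.6 and 170.0 (young WT), 23.1, 7.31 and 14.2 (old WT) and 6.54, 7.62 and 11.1 CPM (old KO). Both old groups lay below all young values. The fold change was -7.87 ± 1.38 (SE; edgeR adjusted p = 0.00530) in old WT against young WT and -6.68 ± 1.31 (SE; edgeR adjusted p = 0.0298) in old KO against young WT. The second was not called without old KO library 1 (-6.54), 2 (-6.56) or 3 (-7.41). Rfc1 had 178, 61.4 and 172 (young WT), 18.2, 8.90 and 51.3 (old WT) and 39.5, 9.39 and 3.76 CPM (old KO), again with both old groups below the young values. Its fold change was -6.74 ± 1.44 (SE; edgeR adjusted p = 0.00775) in old WT against young WT and -5.34 ± 1.35 (SE; edgeR adjusted p = 0.0338) in old KO against young WT. The latter lost its call without young WT library 1 (-4.82), old WT library 1 (-5.41) or 3 (-5.40), or old KO library 1 (-6.79), 2 (-5.09) or 3 (-5.00), and also with total counts. Rfc3 and Rfc4 came mostly from young library 2, at 47.8 and 41.7 CPM, and with Rfc5 (187, 8.51 and 71.9 CPM) were above background in 0 old libraries. In old KO, Pcna was detected in all 3 libraries, and of the 5 loader genes Rfc1 was detected in library 1 alone and Rfc2 in library 3 alone.

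Other fork genes were detected in single old KO libraries. Prim1, the small primase subunit, had 3.57, 184 and 2.62 CPM in old KO, and its library 2 exceeded the young values of 62.8, 8.86 and 7.70 CPM. Pola1, the catalytic subunit of polymerase alpha, had 129, 6.29 and 2.28 CPM in old KO against 8.47, 0.427 and 6.57 CPM in young WT. Rpa3, the small subunit of the single-strand binding protein, had 0.892, 131 and 0.456 CPM in old KO against 5.73, 64.1 and 0.548 CPM in young WT. In each of these genes 1 old KO library exceeded all young libraries and the other two were not above background. Prim2 in library 1 (74.2 CPM), Pola2 in library 2 (72.2 CPM) and Lig1, the ligase that joins lagging-strand fragments, in library 3 (43.7 CPM) were detected in the same way, at or below the top of the young range except for Prim2. Pole, the catalytic subunit of polymerase epsilon, had 67.0, 0.605 and 202 (young WT), 34.8, 29.9 and 62.4 (old WT) and 13.4, 16.9 and 12.0 CPM (old KO). Rpa2, the middle subunit of the single-strand binding protein, had 39.6, 74.7 and 1.19 (young WT), 2.93, 14.3 and 22.0 (old WT) and 1.63, 4.43 and 1.60 CPM (old KO). Both had 1 young library below every old value of the gene, and both were above background in 0 old libraries.

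Of the 5 nucleotide genes, 5 were called lower in old WT against young WT and 3 in old KO against young WT, where 68.7% and 22.3% of young-expressed genes were called. Without any 1 of the old KO libraries the 3 lost their call. Dut, which removes dUTP, had 777, 528 and 431 (young WT), 9.97, 162 and 9.57 (old WT) and 94.4, 4.70 and 5.30 CPM (old KO). All old values were below all young ones, although old WT library 2 (39.1 times background) and old KO library 1 (78.7 times background) stood well above their own groups. The fold change was -7.13 ± 1.75 (SE; edgeR adjusted p = 0.0118) in old WT against young WT and -6.38 ± 1.69 (SE; edgeR adjusted p = 0.0357) in old KO against young WT. The second was not called without young WT library 1 (-5.77) or old KO library 1 (-9.01), 2 (-5.98) or 3 (-6.00). Rrm1, the large subunit of ribonucleotide reductase, had 216, 158 and 215 (young WT), 26.6, 23.2 and 42.3 (old WT) and 6.24, 11.7 and 7.75 CPM (old KO). It was above background in 0 old libraries, and its 3 groups did not overlap. The fold change was -6.81 ± 1.22 (SE; edgeR adjusted p = 0.00552) in old WT against young WT and -6.70 ± 1.22 (SE; edgeR adjusted p = 0.0298) in old KO against young WT, the latter not called without old KO library 1 (-6.56), 2 (-6.84) or 3 (-7.01).

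Tyms, thymidylate synthase, had 58.7, 16.2 and 55.8 (young WT), 50.8, 31.2 and 32.5 (old WT) and 4.09, 9.30 and 30.1 CPM (old KO). The CPM ranges of young and old WT overlapped, and only old KO library 3 was above background among the old libraries. The fold change in old WT against young WT was -4.32 ± 1.41 (SE; edgeR adjusted p = 0.0304), and leaving out young WT library 1 (-3.80) or 1 of the old WT libraries (-4.76, -4.40 and -4.14 without library 1, 2 and 3) ended the call. It was -0.17 with total counts. Rrm2, the S-phase subunit of ribonucleotide reductase, had 1.46, 33.5 and 5.99 (young WT), 3.91, 4.13 and 6.67 (old WT) and 40.6, 1.95 and 0.513 CPM (old KO), with 1 old KO library above the young range. Thymidine kinase 1 (Tk1), of the salvage route, had 15.3, 98.2 and 40.4 CPM in young WT and was above background in 0 old libraries.

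Of the 3 chromatin assembly genes, 3 were called lower in old WT against young WT and 0 in old KO against young WT, beside 68.7% and 22.3% of young-expressed genes. In the direct comparison of old KO with old WT none of the 3 was called (edgeR adjusted p = 0.538 for Slbp, 0.250 for Chaf1b and 1.000 for Chaf1a). Slbp, which binds the stem-loop of histone mRNAs, had 192, 40.4 and 111 (young WT), 58.8, 6.99 and 25.5 (old WT) and 11.4, 11.3 and 88.3 CPM (old KO). Old WT library 1, though not above background, and old KO library 3 reached into the young range. The fold change in old WT against young WT was -6.13 ± 1.62 (SE; edgeR adjusted p = 0.0149), not called without old WT library 2 (-5.80) or 3 (-5.95). Chaf1b, the middle subunit of the chromatin assembly factor, had 48.5, 73.3 and 98.6 (young WT), 13.1, 10.2 and 13.9 (old WT) and 2.82, 117 and 22.3 CPM (old KO). Old WT was below all young values, and old KO library 2 was above them. Its fold change in old WT against young WT was -6.54 ± 1.5 (SE; edgeR adjusted p = 0.00971). Chaf1a, the large subunit, had 0.122, 21.4 and 11.9 (young WT), 8.02, 9.54 and 8.70 (old WT) and 1.41, 2.48 and 0.969 CPM (old KO), so the young and old WT ranges overlapped. The fold change in old WT against young WT was -4.01 ± 1.46 (SE; edgeR adjusted p = 0.0431). It was not called without young WT library 2 (-3.42), without old WT library 1 (-4.07), 2 (-4.32) or 3 (-3.86), or without old KO library 1 (-4.10), 2 (-4.15) or 3 (-4.09), and it was -0.33 with total counts.

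The old KO libraries did not detect the same genes as each other. Of 120 old KO values, 31 were above background, and of these 11 lay above the young WT range of their gene, 9 within it and 11 below it. These classes use CPM and depend on the scaling. The median log2 fold change of all tested genes in old KO against young WT was 1.20 with TMM and 3.25 with total counts. On the TMM scale fewer values may lie above the young range, and this was not counted. In library 1 these were 11 genes, of which Mcm5, Pola1, Prim2, Pold1, Rpa1 and Rrm2 were above the young range. In library 2 they were 7 genes, with Prim1, Pcna, Rpa3 and Chaf1b above it, and in library 3 they were 13 genes, with Mcm6 above it. Besides Pcna and Mcm7, the genes shared by 2 libraries were Mcm5, Pold1, Rpa1 and Dut (libraries 1 and 3) and Chaf1b (libraries 2 and 3). In old WT 3 of 120 values were above background, of which Rpa1 was within the young range and Mcm6 and Dut below it. Replicate pairs were also compared across the 32582 tested genes, by log2 CPM with about 3 counts added to each value. Their Pearson correlation was 0.79 to 0.815 (young WT), 0.556 to 0.593 (old WT) and 0.69 to 0.706 (old KO). These correlations are across genes, which are not independent replicates. Their part in the scattered detection of replication genes was not tested.

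Further genes of replication and of S phase control were examined beside the 40. Of 45 further replication genes, 21 were called lower and 1 higher in old WT against young WT, 1 higher in old KO against old WT and 11 lower in old KO against young WT. Among all tested genes 18.6% were called higher in old WT against young WT. Of the 38 expressed in young WT by the same criterion (2 or more libraries), 21 were called lower in old WT and 11 in old KO against young WT, beside 68.7% and 22.3% of all young-expressed genes, so nothing particular to the list is read from these counts. At least 2 old WT libraries had 1 of the 45 above background and at least 2 old KO libraries had 10. Pold4, the small subunit of polymerase delta, had 97.1, 45.7 and 15.7 (young WT), 4.89, 2.86 and 2.61 (old WT) and 249, 140.0 and 233 CPM (old KO), and was the gene called higher in old KO against old WT (7.83 ± 1.51 (SE; edgeR adjusted p = 0.0370)). Its old KO values in CPM all exceeded the young ones. With TMM its fold change in old KO against young WT was -0.25 (edgeR adjusted p = 0.863), not called. Pole4, an accessory subunit of polymerase epsilon, fell in old WT against young WT by a log2 fold change of -8.35 ± 1.83, as did Samhd1, which breaks down dNTPs (-6.86 ± 1.36; SE, edgeR adjusted p = 0.00839 and 0.00642). Rnaseh2a, the catalytic subunit of RNase H2, had 106, 125 and 17.4 (young WT) and 80.9, 8.90 and 222 CPM (old WT), and was called lower (-3.98 ± 1.48 (SE; edgeR adjusted p = 0.0462)) although 2 old WT libraries were within or above the young range.

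Of 25 S phase control genes, 12 were called lower in old WT against young WT, 1 higher in old KO against old WT and 4 lower in old KO against young WT. Of the 18 expressed in young WT by that criterion, 11 and 4 were called lower in old WT and in old KO against young WT, beside the same 68.7% and 22.3%, and these counts too are read as nothing particular to the list. The gene called higher was E2f4, a repressor E2F of resting cells, with 43.0, 143 and 41.4 (young WT), 7.62, 3.82 and 5.80 (old WT) and 213, 151 and 201 CPM (old KO) (6.99 ± 1.32 (SE; edgeR adjusted p = 0.0338) in old KO against old WT). In CPM every old KO value was above every young value. With TMM the E2f4 fold change in old KO against young WT was -0.56 (edgeR adjusted p = 0.666), not called. Tfdp1, a dimer partner of E2F factors, had 379, 108 and 328 (young WT), 4.30, 18.1 and 30.7 (old WT) and 11.1, 9.92 and 4.05 CPM (old KO), and was called lower in both old groups against young WT (-8.23 and -7.40; edgeR adjusted p = 0.00530 and 0.0298). Tfdp2 came from 1 young library (308, 2.56 and 0.806 CPM). Myc, a transcription factor that promotes entry into the cell cycle, had 256, 149 and 371 (young WT), 55.5, 6.04 and 74.2 (old WT) and 96.2, 8.06 and 294 CPM (old KO). It was called lower in old WT against young WT (-6.74 ± 1.62 (SE; edgeR adjusted p = 0.0111)), and old KO library 3 was within the young range. Leaving out single libraries was not tried for the genes of these 2 lists.

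Markers of cycling cells and of other cell types were read beside these results. Mki67, a marker of cycling cells, had 119, 86.9 and 104 (young WT), 17.6, 11.8 and 31.6 (old WT) and 5.57, 6.11 and 3.25 CPM (old KO), and was above background in all 3 young libraries and in 0 old ones. With Cd48 and Flt3, which mark progenitors outside the sort gate, the list summed to 99.4 to 176 CPM in young WT, 40.1 to 63.2 CPM in old WT and 7.75 to 12.2 CPM in old KO, and 1 to 3 of the 3 genes were above background in young WT libraries and 0 in old ones. Cd48 was at 0 counts in young WT library 3. Erythroid markers had 5 to 6 of 8 genes above background in young WT (81.1 to 612 CPM in sum), 0 in old WT (14.3 to 28.4 CPM) and 0 to 1 in old KO (7.36 to 62.2 CPM). Granulocyte and monocyte markers had 5 to 6 of 10 in young WT (706 to 1020 CPM), 2 to 3 in old WT (691 to 1180 CPM) and 2 to 5 in old KO (1138 to 1883 CPM), and Ctsg, S100a9, Ly6g and Itgam were at 0 counts in at least 1 young library. For B cells 1 to 2 of 6 markers were above background in young WT (7.33 to 82.1 CPM), 0 to 1 in old WT (73.9 to 118 CPM) and 0 to 1 in old KO (11.9 to 165 CPM). For T cells 0 to 2 of 5 were above background in young WT (0.419 to 1.10 CPM) and 0 in both old groups (24.2 to 71.1 and 5.93 to 11.4 CPM), with Cd3e and Cd3d at 0 counts in a young library. Megakaryocyte markers had 3 of 4 in young WT (367 to 794 CPM), 0 to 1 in old WT (36.5 to 393 CPM) and 1 to 3 in old KO (85.2 to 554 CPM), with Ppbp at 0 counts in a young library. The part of other cell types, of depth and of background in the levels of the replication genes was not tested.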

How the data were processed

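The authors deposited a table of raw read counts by gene and library. Tools listed in the submitters' processing notes are HTSeq 0.10.0, STAR 2.6.1d, Trim Galore 0.6.2 and edgeR 3.24.3, with the build mm10. The table's 5 lines that name no gene stayed out of library sizes and tests (outside genes 6.51% to 87.7% of all counts, ambiguous 0.619% to 5.48%). Counts of all 9 libraries were tested with edgeR 4.0.16 (quasi-likelihood F test, mean per group, TMM, filterByExpr) in R 4.3.3. DESeq2 1.42.0, other scalings, filters, thinned counts, counts with background subtracted and fits without single libraries were alternatives. CPM are counts scaled to 1000000 counts in genes. Lengths and positions come from GENCODE M21 (GRCm38), which placed 52403 of 52550 identifiers. Background is the density of reads on exons of olfactory receptors (1134 genes, without the densest 1%).

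The genes, lists, steps and tests were chosen with earlier results of these data known. Fold changes are given for the 3 genes of each step (5 for fork factors) with the highest mean CPM over the 9 libraries, any called in old KO against old WT, and any detected in 2 or more old WT libraries. Gins1 is an exception, and which comparisons are printed for each was picked after values were seen. Up to 4 genes of each further list are named: those called in old WT against young WT with the highest mean CPM, and E2f4 and Pold4 are among them; the further genes under the other observations were chosen after their values were seen. Deviations from the group means correlated at -0.032 to 0.021 for libraries with the same replicate number and at -0.023 to 0.036 for different numbers. With 3 libraries per group and noisy old libraries, this cannot decide whether the numbers pair libraries. No 2 libraries held identical counts. Both tools were tested on simulated counts of 1 small dispersion. edgeR met the bound set on false calls. DESeq2 did not, with a share of false calls above its nominal rate, and the bound was then kept for edgeR alone, so DESeq2's calls may hold more false ones.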

Additional observations from a re-analysis of the deposited data

How the results depend on the processing

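The numbers of called replication genes depended on the processing. For most of these settings the share of all tested genes was not counted, and the number of genes tested differed slightly. No excess is therefore read from the counts that follow. In old WT against young WT, 34 were lower: 11 with total counts, 11 with counts thinned to equal counts in genes, 0 after background subtraction, and 17 to 36 when single libraries were left out (20, 17 and 17 without old WT library 1, 2 and 3). With upper-quartile factors, DESeq2, other filters, the 6 compared libraries or the replicate block the count stayed between 23 and 35. In old KO against old WT, 1 was higher: 8 with DESeq2, and 0 with total counts, upper-quartile factors, the 6 compared libraries, the replicate block or background subtraction (edgeR; 3 higher and 4 lower at an unadjusted p under 0.05 with total counts, 6 and 1 after background subtraction). It was 0 to 1 without single libraries. In old KO against young WT, 14 were lower: 24 with DESeq2, 8 thinned (and 1 higher), 0 after background subtraction (9 at an unadjusted p under 0.05) or with the replicate block, and 0 to 17 without single libraries. Total counts turned the sign of the median in old KO against old WT (-1.11) and of Pcna in old KO against young WT (0.031). In old WT against young WT they turned the sign of Gins1 (0.88), Mcm10 (0.51) and Pola1 (1.96). The number of the 39 genes below 0 went from 9 to 24 in old KO against old WT and from 37 to 31 in old KO against young WT. Without young WT library 3 Mcm10 was at 0.27, with a range over single libraries left out of -4.15 to 0.27. With the replicate block 9 of the 22 called fold changes tried lost their call. The labels do not say whether libraries of the same number belong together. Mean numbers above background were 34.0 in young WT at 10 times background and 30.7 thinned, and at 3 times background 2.33 (old WT) and 13.7 (old KO). The causes were not tested. A gene near background in old WT may be expressed below what 3145167 to 5115003 counts in genes can show, and this was not tested.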

Other observations

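Some further replication genes outside the 40 were above background in old libraries; they were chosen after their values were seen. Orc1, the large subunit of the origin recognition complex on which licensing starts, had 0.0811, 0.285 and 0.290 (young WT), 119.7, 7.63 and 16.5 (old WT) and 4.53, 3.81 and 3.08 CPM (old KO). Old WT library 1 alone was above background, and Orc1 was the further replication gene called higher in old WT against young WT (4.01 ± 1.23 (SE; edgeR adjusted p = 0.0250)). Orc2, another subunit, had 0.446, 30.4 and 0.387 (young WT), 74.9, 10.5 and 7.25 (old WT) and 3.34, 6.11 and 1.99 CPM (old KO), and in old WT it too was above background in library 1 alone. Besides Pold4, the further replication genes above background in all 3 old KO libraries were Dtymk and Nme1, which phosphorylate nucleotides, and Rnaseh2c, a subunit of RNase H2. Dtymk had 36.2, 145 and 21.5 CPM, Nme1 28.8, 60.6 and 122 CPM and Rnaseh2c 51.8, 5.76 and 3.25 CPM there, against 83.5, 3.18 and 8.12, 269, 3.50 and 8.41 and 138, 3.18 and 6.96 CPM in old WT, and none of the 3 was called between the old groups.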
